A study of Mus musculus with 6 samples.

Results

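Genes of ATP-dependent chromatin remodelers were examined in mouse oocytes with a conditional knockout of Nat10. The group comprised 51 of the 55291 gene rows of the count table. It was defined by symbol: rows that begin with Smarca to Smarce or with Ino80, the numbered Chd genes, Arid genes with a letter suffix, and Pbrm1, Brd7, Brd9, Atrx, Hells, Baz1a, Baz1b, Baz2a, Baz2b, Bptf, Ruvbl1 and Ruvbl2. The rule itself uses symbols and no expression value. By family, 14 rows were SWI/SNF subunits, 7 belonged to the ISWI family, 9 to the CHD family and 7 to the INO80 complex. A further 4 were other SNF2-type ATPases, and 7 were ARID-domain genes outside SWI/SNF. The last 3 were the antisense transcript Ino80dos and the pseudogenes Smarca5-ps and Smarce1-ps1.

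Remodelers use the energy of ATP to slide, eject or exchange nucleosomes, and each complex is built around 1 ATPase of the SNF2 type. SWI/SNF complexes carry SMARCA4 (BRG1) or SMARCA2 (BRM) as alternative ATPases and open chromatin at promoters and enhancers. ISWI complexes space nucleosomes, CHD proteins read histone marks or, as in NuRD, pair remodeling with deacetylation, and INO80 acts on nucleosomes that hold the histone variant H2A.Z. During growth the oocyte stores the mRNAs of such proteins for the embryo, and maternal BRG1 is known to be needed for zygotic genome activation in the mouse. NAT10, the enzyme encoded by the gene targeted here, acetylates cytidine in RNA to N4-acetylcytidine.

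The study held 3 libraries of wild-type (WT) and 3 of Gdf9-cre Nat10 conditional knockout (cKO) oocytes, each made from a pool of 10 oocytes by Smart-seq2 and read as polyadenylated RNA. Gdf9-cre is active in oocytes, so Nat10 is removed in the germ cell and not in the follicle cells around it. All females were mature and primed with PMSG, a gonadotropin that makes follicles grow; oocytes, called fully growing in the labels, were taken 32 or 36 to 48 h later, as 2 entries differ, and ERCC spike-in RNA was added to every pool. Of the strain, the age in weeks, unrecombined alleles in WT females and whether the oocytes of a pool came from 1 female the labels say nothing, so p-values measure only the spread between these pools, which may be partly technical. Recovered reads ranged from 33.5 to 74.1 M per library. Nat10 itself was 42.1, 50.1 and 39.3 CPM, the gene's reads per unit of library size, in WT and 5.72, 5.97 and 6.32 CPM in cKO libraries (limma log2 change -2.67). The 10 oocyte markers were all above 40 CPM in every library, and their summed level was 21905 to 22280 CPM in WT and 26230 to 31326 CPM in cKO libraries. By mean, Gdf9 and Bmp15 led in WT, and Gdf9 and Zp2 in cKO libraries. Granulosa markers (12 genes) summed to 416 to 467 CPM in WT and 393 to 435 CPM in cKO libraries, mostly from Serpine2 and Cyp19a1, with Amh and Foxl2 at 0 to 14 reads. Theca, stroma and endothelium markers (11 genes) summed to 95.5 to 102 and 93.5 to 108 CPM, mostly from Pecam1 and Myh11, with Cdh5 and Col1a2 at 0 to 4 reads. Blood and immune markers summed to 51.1 to 55.8 and 41.1 to 44.4 CPM, mostly from C1qb and H2-Aa, with Ptprc at 0 to 4 reads. Of these lists, 7, 1, 1 and 0 genes rose and 2, 2, 2 and 1 fell, in the order given, and their part in the results below was not tested. In pooled oocytes, less RNA per cell and loss of RNA from some cells cannot be told apart.

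Levels below are CPM scaled by TMM factors, which set the bulk of oocyte mRNA equal between libraries. Log2 changes are cKO minus WT of log2(CPM + 1), tested with limma across 18353 genes that passed a filter on low reads, with a threshold of 0.05 on the Benjamini-Hochberg adjusted p. Of the 51 rows, 50 passed the filter. The pseudocount of 1 CPM understates changes of low genes. Remodeler genes moved in both directions: 9 rose, 10 fell and 31 did not pass. The share that passed among all tested genes was 35.0%, with 17.4% higher and 17.6% lower, so the 38.0% of tested remodeler rows that passed is near the background. edgeR on the same reads called 19, against 33.8% of all tested genes, and 18 were called by both. With limma 0 of the called members changed by 2-fold or more, against 4.48% of all tested genes (2.50% higher and 1.98% lower); 22 of the 50 passed at an unadjusted p under 0.05, against 44.9% of all tested genes. edgeR called 1, Smarcd1, at 2-fold or more, against 11.3% of all tested genes. The median log2 change was -0.02 over the 50 rows and 0.00 over all tested genes. All cKO libraries lay above all WT libraries for 12 of the 50 rows and below for 10, against 24.1% and 24.2% of all tested genes, 48.3% in all. The split between rises and falls depended on scale, as set out further on.

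**Figure D1:**
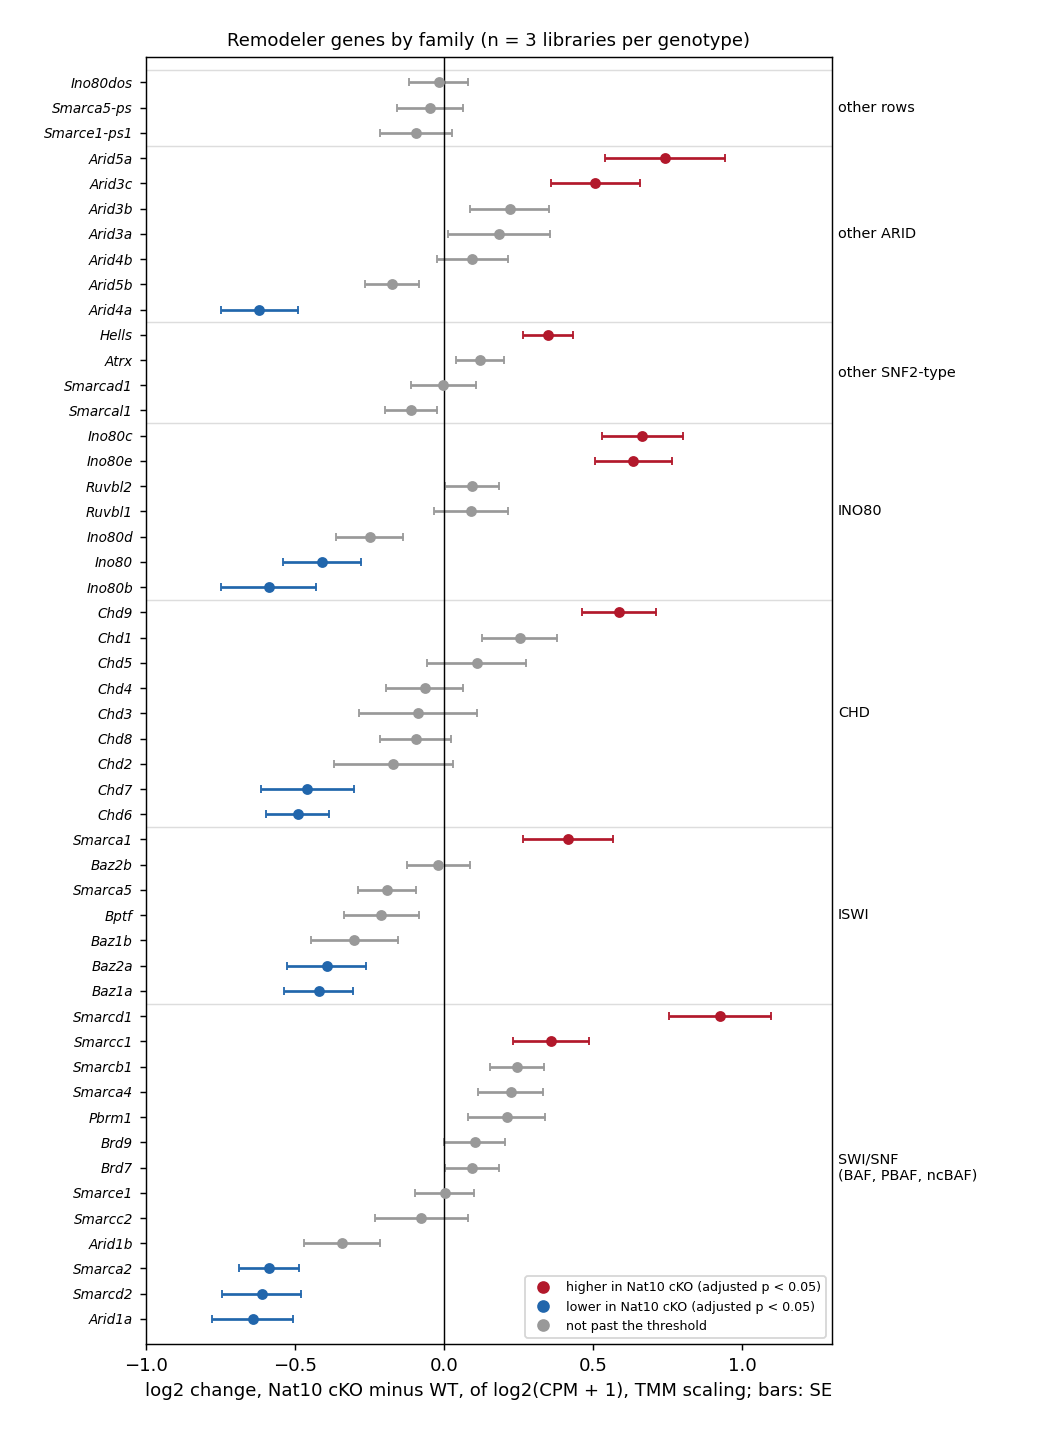
Log2 change (cKO minus WT, horizontal axis, log2(CPM + 1) scale) of the 50 tested remodeler rows, grouped by family on the vertical axis; points are limma estimates from 3 libraries per genotype and bars are standard errors. Red points passed the threshold upward (9 genes) and blue points downward (10 genes); SWI/SNF, ISWI, CHD, INO80 and the other ARID genes each hold both colors, and of the pseudogene and antisense rows 0 passed.

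In SWI/SNF, the BRM-type ATPase gene Smarca2 and the subunit genes Arid1a and Smarcd2 fell, while Smarcc1 and Smarcd1, of lower level, rose. That was 38.5% of the 13 tested members, against 35.0% of all tested genes. Smarca2, which encodes the ATPase BRM, stood at 259, 255 and 262 CPM in WT and at 187, 147 and 185 CPM in cKO libraries. All cKO libraries lay below all WT libraries, and the WT values were tightly grouped. The log2 change was -0.59 (SE 0.0996, limma adjusted p = 0.00077), 1.5-fold lower in mean CPM. Smarca4, which encodes the alternative ATPase BRG1, was at 35.6, 41.1 and 34.5 CPM in WT and 39.9, 44.8 and 45.5 CPM in cKO libraries. Its groups overlapped and its change of 0.22 (SE 0.109, adjusted p = 0.127) did not pass. Leaving out WT replicate 2, the highest WT library for Smarca4, brought it past the threshold.

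The ARID1 subunits define the canonical BAF form of SWI/SNF. Arid1a was 252, 277 and 240 CPM in WT and 159, 132 and 210 CPM in cKO libraries, with no overlap. It fell by 0.64 (SE 0.137, limma adjusted p = 0.00313). Its paralog Arid1b was 216, 262 and 253 CPM in WT and 197, 156 and 229 CPM in cKO libraries, with cKO replicate 3 inside the WT range. The change of -0.34 (SE 0.127) missed the threshold at an adjusted p of 0.051. It passed without WT replicate 1, without cKO replicate 3, with a filter at a mean of 1 CPM, with the replicate number as a block and on the per-read scale described further on.

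Smarcd genes encode the BAF60 subunits, which link the complex to transcription factors and of which each complex holds 1 type. Smarcd2 was by far the most abundant, at 131, 156 and 120 CPM in WT and 85.9, 73.9 and 107 CPM in cKO libraries. It fell by 0.61 (SE 0.132, limma adjusted p = 0.00335), and the cKO values all lay below the WT values. Smarcd1 was near the lower end of detection, at 0.371, 0.919 and 0.590 CPM in WT, from 12, 32 and 38 reads. In cKO libraries it was 1.80, 2.67 and 1.78 CPM, from 135, 127 and 129 reads, above every WT library. It rose by 0.93 on the log2(CPM + 1) scale (SE 0.172, limma adjusted p = 0.00135). edgeR, which adds no such pseudocount, gave 1.72 (adjusted p = 0.0025). Gm17349 and Gm34939 on the opposite strand cover 7.13% and 5.56% of its exon bases, and reads from them cannot be told apart without strand. Smarcd3 failed the filter, with 0, 0 and 18 reads in WT and 10, 4 and 4 in cKO libraries. Exons of Chpf2 on the other strand cover 48.2% of its exon bases, so even these reads are of uncertain origin.

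Among the remaining SWI/SNF members, Smarcc1, which encodes the BAF155 scaffold protein, rose from 12.4, 14 and 12.5 to 17.2, 15.4 and 18.3 CPM. Its log2 change was 0.36 (SE 0.127, limma adjusted p = 0.0417), but the call was lost without WT replicate 1 or 3 or cKO replicate 1 or 3. Smarcb1, the core subunit SNF5, lay at 102, 113 and 98.0 CPM in WT and 120, 121 and 129 CPM in cKO libraries. Although all cKO values were higher, its change of 0.24 (SE 0.0904) just missed, with a limma adjusted p of 0.0505, and edgeR placed it on the other side at an adjusted p of 0.0473. Smarce1, Smarcc2, Brd7 and Brd9, the last a marker subunit of the non-canonical complex, had log2 changes between -0.08 and 0.10 and did not pass. Of these, Brd7 was slightly higher in every cKO library than in any WT library. Pbrm1, which defines the PBAF form, had a change of 0.21 (adjusted p = 0.225).

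**Figure D2:**
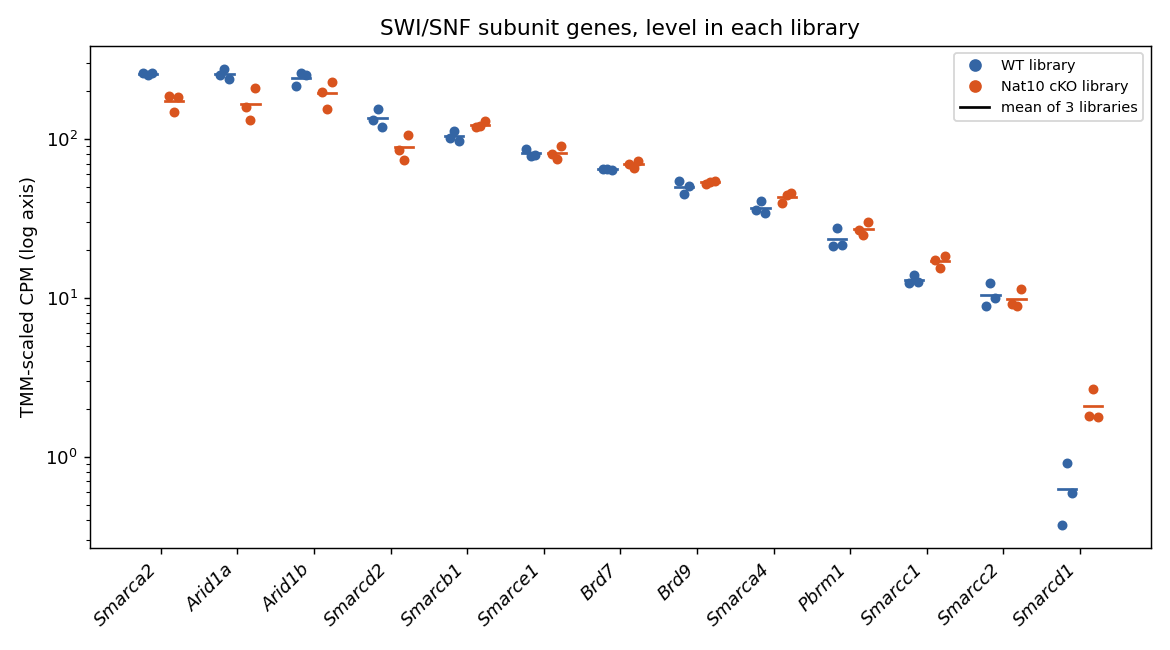
TMM-scaled CPM (vertical log axis) of the 13 tested SWI/SNF members in each library, ordered by WT mean; blue points are WT, orange points Nat10 cKO libraries and horizontal bars the means of 3. Smarca2, Arid1a and Smarcd2 sit lower in every cKO library than in any WT library. Smarcd1, the least abundant, and Smarcc1, Smarcb1 and Brd7 sit higher in every one. Over all tested genes, 24.1% lay wholly above and 24.2% wholly below.

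The bases just upstream of 4 members that passed the threshold are shown because 2 fell and 2 rose within a set of genes whose starts have a common base composition. They come from RefSeq promoters on GRCm38.p6, up to 250 bases before the RefSeq start and clipped where GENCODE M21 already annotates the gene. Sequences run 5′ to 3′ on the gene's strand, and capitals mark the GC box, GGGCGG or its complement CCGCCC. Smarca2 lies at chr19:26604910-26605049 on the plus strand, Arid1a at chr4:133756770-133757019 on the minus strand, Hells at chr19:38930740-38930914 and Smarcd1 at chr15:99702037-99702128, both on the plus strand.
Smarca2 (fell): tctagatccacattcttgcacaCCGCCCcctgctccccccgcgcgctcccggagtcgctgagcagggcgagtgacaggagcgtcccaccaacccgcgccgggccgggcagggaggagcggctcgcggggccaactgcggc
Arid1a (fell): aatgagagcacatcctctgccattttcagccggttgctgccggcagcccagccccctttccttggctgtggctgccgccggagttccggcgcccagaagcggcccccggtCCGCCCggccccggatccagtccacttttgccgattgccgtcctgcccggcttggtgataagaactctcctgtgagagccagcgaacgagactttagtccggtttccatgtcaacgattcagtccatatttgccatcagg
Hells (rose): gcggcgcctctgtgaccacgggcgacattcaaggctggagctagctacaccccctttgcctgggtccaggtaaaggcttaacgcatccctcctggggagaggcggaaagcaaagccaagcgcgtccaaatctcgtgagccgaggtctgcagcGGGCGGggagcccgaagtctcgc
Smarcd1 (rose): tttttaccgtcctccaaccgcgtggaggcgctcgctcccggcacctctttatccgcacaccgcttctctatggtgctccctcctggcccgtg
Of the 51 rows, 39 had an entry, with 48 start sites in all. Over the full 250 bases, 72.9% of these 48 held a GC box on either strand, against 32.7% of all 32851 promoters in the table, and the median number of CpG dinucleotides was 21 against 6. That background was not limited to genes tested in these oocytes, so the contrast cannot be taken as particular to remodelers. An E-box (CANNTG) was found in 56.2% against 66.2%, a CCAAT box in 31.2% against 33.8%, and the element TAATTG bound by the oocyte factor NOBOX in 4.17% against 7.17%, each on either strand. GC-box matches thus occurred upstream of genes that fell and of genes that rose; the stretch printed for Smarcd1 holds none, and its full window 1.

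In the ISWI family 2 large regulatory subunit genes fell and 1 ATPase gene, near the detection limit, rose. That was 42.9% of its 7 genes, against 35.0% of all tested genes. Baz1a encodes ACF1, the partner of the ATPase SNF2H in the ACF and CHRAC complexes. It was 45, 47 and 43.7 CPM in WT and 33.2, 29.1 and 39 CPM in cKO libraries, without overlap, and fell by 0.42 (SE 0.117, limma adjusted p = 0.0138). Without cKO replicate 1 or 2 this call was lost. Baz2a, which encodes the NoRC subunit TIP5 that acts on ribosomal DNA, went from 65.7, 71.6 and 59.3 to 46.0, 42.5 and 61.9 CPM. Its groups overlapped in cKO replicate 3. The change of -0.39 (SE 0.133, limma adjusted p = 0.0341) did not pass when any 1 library other than cKO replicate 3 was left out.

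Smarca5, the gene of the ATPase SNF2H itself, was 176, 163 and 169 CPM in WT and 151, 130 and 164 CPM in cKO libraries. Its change of -0.19 (SE 0.0977, adjusted p = 0.147) did not pass. Bptf, the large NURF subunit, and Baz1b, of the WICH complex, had changes of -0.21 and -0.30 (adjusted p = 0.214 and 0.127). For Smarca5, Bptf and Baz1b, cKO replicate 3 was the highest cKO library, and without it all 3 passed. Baz2b did not pass, at -0.02. The alternative ISWI ATPase gene, Smarca1, was barely detected, at 10, 14 and 38 reads in WT and 80, 26 and 84 in cKO libraries. It passed in limma (0.41, adjusted p = 0.0458) with overlapping groups, but not in edgeR (adjusted p = 0.0584), and without any 1 library other than cKO replicate 2 the call was lost.

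Within the CHD family, 1 of 9 genes rose and 2 fell, 33.3% called against 35.0% of all tested genes. These calls all lay in the CHD6 to CHD9 subgroup of 4 genes. Chd6 was 75.8, 67.5 and 68.2 CPM in WT and 51.2, 44.2 and 54.6 CPM in cKO libraries, with no overlap. It fell by 0.49 (SE 0.105, limma adjusted p = 0.00325). Chd7, mutated in CHARGE syndrome, went from 92.7, 122 and 92.9 to 71.7, 58.8 and 95.3 CPM. Its change of -0.46 (SE 0.155, limma adjusted p = 0.0349) came with overlapping groups and was lost without WT replicate 2 or 3 or cKO replicate 1 or 2. Chd9 moved the other way, from 78.6, 116 and 106 CPM in WT to 142, 155 and 150 CPM in cKO libraries, and rose by 0.59 (SE 0.125, limma adjusted p = 0.0031). Every cKO library exceeded every WT library. Chd8 did not pass, at -0.09 (adjusted p = 0.569).

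Chd4, the main NuRD ATPase gene, was 92.8, 108 and 86.9 CPM in WT and 88.3, 76.9 and 112 CPM in cKO libraries. The spread within each genotype was larger than the difference between them, at -0.07 (SE 0.130). Its paralogs Chd3 and Chd5 stayed below 8 CPM in every library and did not pass (-0.09 and 0.11). Chd1, whose product binds methylated H3K4 and which is known for its role in the early embryo, was 11.2, 12.2 and 10.6 CPM in WT and 13.5, 13.9 and 13.8 CPM in cKO libraries. These values did not overlap, yet the change of 0.25 (SE 0.126, adjusted p = 0.135) did not pass. Chd2 was near the lower end, with 44 to 144 reads per library. A transcript annotated on the same strand covers 18.4% of its exon bases, and how such reads were assigned is unknown.

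In INO80, the ATPase gene and 1 accessory subunit gene fell, and 2 accessory subunit genes rose. That was 57.1% of its 7 genes, against 35.0% of all tested genes. Ino80, the ATPase gene, was 47.7, 51.2 and 51.1 CPM in WT and 35.6, 31.5 and 46.7 CPM in cKO libraries. It fell by 0.41 (SE 0.131, limma adjusted p = 0.0274), a call lost without WT replicate 2 or 3 or cKO replicate 1 or 2. Ino80b, which encodes the subunit IES2, fell from 12, 12.5 and 10.6 to 7.47, 6.03 and 9.13 CPM (log2 change -0.59, limma adjusted p = 0.0113), and missed only without cKO replicate 2 among the libraries left out. Both kept cKO below WT in every library. In contrast, Ino80c, the IES6 subunit gene, rose from 15.2, 14.8 and 14.5 to 24.9, 28.2 and 19.9 CPM (0.66, SE 0.136, limma adjusted p = 0.00252). Ino80e rose as well, from 25, 33.3 and 25.9 to 40.9, 49.5 and 41.6 CPM (0.63, SE 0.129, adjusted p = 0.00236). For both, all cKO values exceeded all WT values. Doc2a on the other strand covers 14.4% of the exon bases of Ino80e.

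Ino80d had a change of -0.25 (adjusted p = 0.098). Ruvbl1 and Ruvbl2 encode the AAA+ ATPases shared by INO80, SRCAP and TIP60 and did not pass, with changes of 0.09 in both (SE 0.125 and 0.0901). Gys1 on the opposite strand covers 10.7% of the exon bases of Ruvbl2. The antisense row Ino80dos had 6 to 17 reads per library and did not pass.

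Of the other SNF2-type genes, only Hells passed. HELLS (LSH) supports DNA methylation and meiotic chromosome pairing. Hells was 121, 122 and 124 CPM in WT and 164, 155 and 149 CPM in cKO libraries. The WT values lay within 3 CPM of each other and all cKO values were above them, with a log2 change of 0.35 (SE 0.084, limma adjusted p = 0.00627). Atrx encodes a histone H3.3 loader at pericentric heterochromatin and was the most read of all the remodeler rows, at 335, 314 and 326 CPM in WT and 346, 341 and 374 CPM in cKO libraries. Every cKO value exceeded the WT values, but the change of 0.12 (SE 0.0811, adjusted p = 0.268) did not pass. Smarcal1, an annealing helicase, and Smarcad1, which acts in DNA end resection, had changes of -0.11 and -0.00 and did not pass.

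ARID-domain genes outside SWI/SNF moved individually. Arid4a, whose product binds RB and the SIN3 complex, fell from 39.7, 39.1 and 36.9 to 25.9, 20.4 and 28.8 CPM (log2 change -0.62, SE 0.128, limma adjusted p = 0.00263). Its close paralog Arid4b did not pass, at 17.9, 21.3 and 19.3 CPM in WT and 20.2, 20.3 and 22.1 CPM in cKO libraries. Arid5a, an RNA-binding regulator, rose from 5.99, 11 and 7.86 to 12.4, 18.5 and 12.4 CPM (0.74, limma adjusted p = 0.0122) and Arid3c from 8.03, 7.35 and 6.85 to 10.9, 12.8 and 9.31 CPM (0.51, adjusted p = 0.0183). Both were higher in every cKO library. Arid5a lost its call without WT replicate 1 or 3 or cKO replicate 2, and Arid3c without WT replicate 3 or cKO replicate 1 or 2. Arid5b, at 249 to 274 CPM in WT and 209 to 249 CPM in cKO libraries, had a change of -0.17 (adjusted p = 0.151). Arid3a and Arid3b had changes of 0.18 and 0.22 and did not pass. The pseudogenes Smarca5-ps and Smarce1-ps1 had 4 to 26 reads per library, and reads of their parent genes could be split with them.

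The 18 ATPase genes were then ordered by length-scaled level, as TPM: reads for each kilobase of annotated exon, scaled to a fixed total per library. In WT, Smarca5 led with 63.7 ± 1.13 TPM (SD, n = 3), followed by Smarcal1 at 59.98 ± 4.98, Smarca2 at 53.1 ± 1.54, Hells at 49.8 ± 2.03 and Atrx at 43.7 ± 0.560 TPM. Smarca5 and Smarcal1 did not differ beyond their spread. Chd4 followed at 35.2 ± 5.45 TPM and Smarca4 ranked 9 of 18 at 16.8 ± 2.28 TPM. Chd1, Chd5, Chd3, Chd2 and Smarca1 made up the lower end, from 3.82 down to 0.208 TPM. In cKO oocytes Hells led, at 65.4 ± 2.66 TPM, and Smarca2 ranked 5 at 36.6 ± 5.02 TPM. The order depended on the length used, among the leading 5 and below them. With the transcript of the longest coding sequence, Smarca2 came first in WT at 89.1 ± 2.62 TPM and ranked 3 in cKO at 61.3 ± 8.32 TPM. Smarcal1 then led the cKO order, and Smarca4 ranked 13 in WT and 10 in cKO oocytes.

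For 13 pairs of paralogs the log2 ratio of (CPM + 1) was compared within each library, where a library's scaling factor largely cancels except for genes near the pseudocount of 1 CPM, with an exact two-sided permutation test over the 20 ways to assign 6 libraries. The smallest p that this design can give is 0.1, which 7 pairs reached, all adjusted to 0.186 over the 13 pairs. How often ratios of other genes reach it was not counted. Of all single tested genes, 48.3% had groups that did not overlap. The log2 ratio of Smarca4 to Smarca2 was -2.83, -2.61 and -2.89 in WT and -2.20, -1.69 and -2.0 in cKO libraries. The groups did not overlap and differed by 0.81 (p = 0.1, exact permutation, n = 3 per group). Per length of annotated exon, Smarca4 made up 24.0% ± 1.95 (SD) of the pair in WT and 35.8% ± 4.14 in cKO libraries. With the transcript of the longest coding sequence its share was smaller in both. Smarca4 was then at 11.8 TPM against 89.1 TPM for Smarca2 in WT, and 14.1 against 61.3 TPM in cKO libraries. BRM-type transcript thus remained the larger share in every library.

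The ratio of Smarcd1 to Smarcd2 differed by 1.54, with every cKO library above every WT library, although Smarcd1 was only 0.404% ± 0.139 of that pair per length in WT and 2.14% ± 0.865 in cKO libraries. Smarcc1 to Smarcc2 was 0.44, 0.17 and 0.30 in WT and 0.85, 0.73 and 0.64 in cKO libraries, a difference of 0.44. Arid1a to Arid1b went from 0.22, 0.08 and -0.08 to -0.32, -0.24 and -0.12. Chd8 to Chd9 was also lower in every cKO library, by 0.68, as was Smarca5 to Smarca1, by 0.61. With a pseudocount of 0.25 CPM the Smarca5 to Smarca1 difference was -0.95; Smarca1 had 10 to 84 reads per library. Smarcd1 to Smarcd3 was the seventh pair without overlap, and rests on a denominator of at most 18 reads per library. Baz2a to Baz2b and Chd1 to Chd2 overlapped between genotypes (p = 0.2 each, exact permutation). Chd4 to Chd3, Brd7 to Brd9 and Ruvbl1 to Ruvbl2 differed by 0.02, -0.01 and -0.00, less than the spread between libraries.

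**Figure D3:**
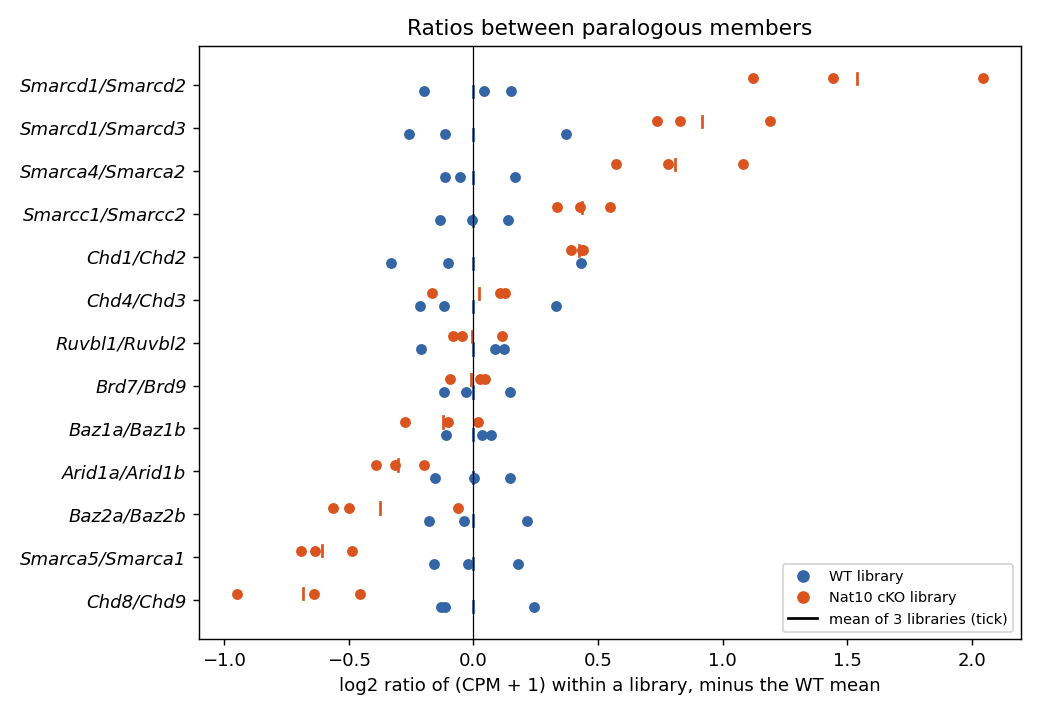
Log2 ratio of (CPM + 1) between the 2 genes of each of 13 paralog pairs within a library, less the mean of the WT libraries (horizontal axis); blue points are WT, orange points Nat10 cKO libraries and short vertical ticks the means of 3. For 7 pairs the orange points lie wholly to one side of the blue ones, as was so for 48.3% of all single tested genes. The share for ratios of other genes was not counted. The shifts of Smarcd1/Smarcd2 (1.54) and Smarca4/Smarca2 (0.81) are to the right and that of Chd8/Chd9 (-0.68) to the left.

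Libraries within a genotype did not spread evenly. For all 10 members that fell, cKO replicate 2 was the lowest cKO library, and for 9 of them cKO replicate 3 was the highest. Arid1a shows the spacing, at 132 CPM in cKO replicate 2 and 210 CPM in cKO replicate 3. Over all 3232 genes that fell, the corresponding shares were 70.9% and 62.0%. For the 9 members that rose, cKO replicate 2 was the highest cKO library in 6, against 74.9% of all genes that rose. The number of remodeler genes that fell was 5 without cKO replicate 2, 6 without cKO replicate 1 and 14 without cKO replicate 3, and the number that rose was 5 without WT replicate 3, 6 without WT replicate 1 or cKO replicate 1, and 12 without WT replicate 2. Calls of 10 of the 19 called members held without any 1 library: rises of Smarcd1, Ino80c, Ino80e, Chd9 and Hells and falls of Arid1a, Arid4a, Smarcd2, Smarca2 and Chd6. The share of all called genes that held in this way was not counted, so whether members are more stable than other genes is not known. Over all tested genes, leaving out 1 library gave 2107 to 3431 rises and 2201 to 3334 falls, against 3190 and 3232 with all 6.

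The values as deposited carry 1 factor per library from the authors and are not divided by depth. On that scale the log2 changes of all tested genes shift up by a median of 0.31 against TMM scaling, and of the members 1 rose and 0 fell, against 6.58% and 1.39% of all tested genes, 7.97% in all (limma; at an unadjusted p under 0.05, 7 of the 50 were higher and 0 lower, against 16.7% and 3.49% of all tested genes, and no other tool was run on these values). Smarcd1 was the one that rose, by 1.06 (limma adjusted p = 0.00163). Applied to per-read shares instead, the same factors shift all genes by -0.19, and 1 member rose and 11 fell, against 5.60% and 16.5% of all tested genes. The 19 called members kept their direction on all 3 scales, with Smarca2 at -0.59 under TMM scaling, -0.23 as deposited and -0.80 on per-read shares. Hells was at 0.35, 0.71 and 0.13. Because the scales differ mainly by a shift shared across genes, the kept direction is not a separate test of these calls. Of the 50 tested rows, Smarcd1 alone passed on all 3.

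**Figure D4:**
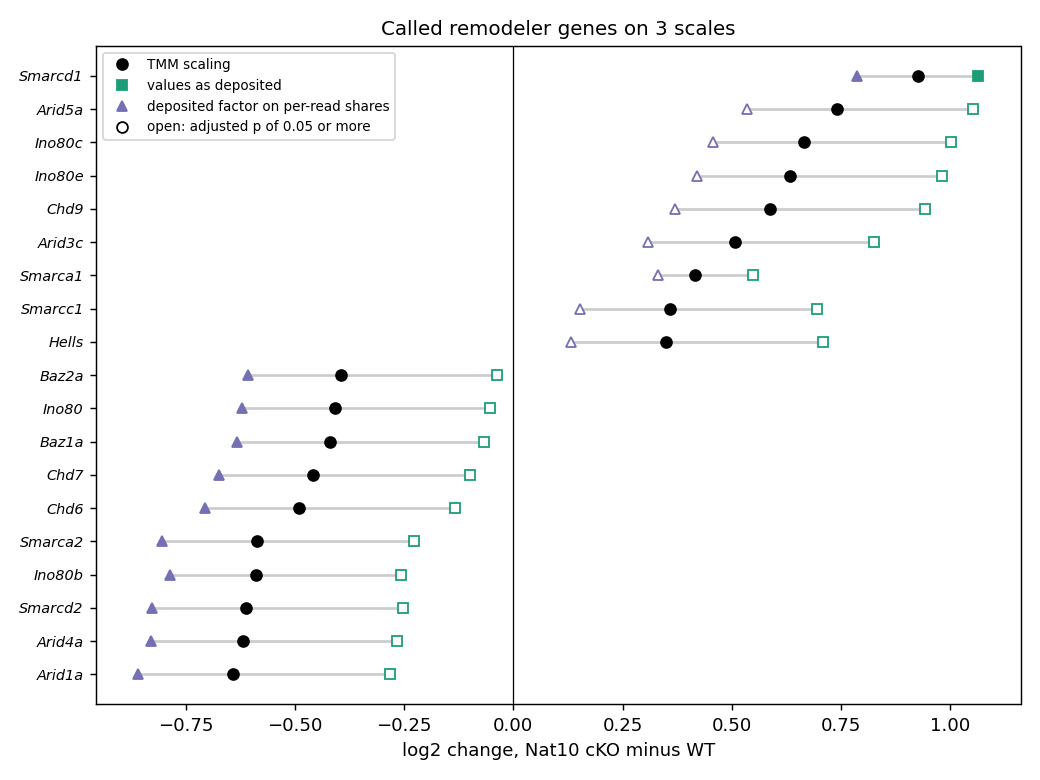
Log2 change (cKO minus WT, horizontal axis) of the 19 called remodeler genes under TMM scaling (black circles), as deposited (green squares) and with the deposited factor on per-read shares (purple triangles); filled symbols have an adjusted p below 0.05. Each gene keeps its side of 0 on the 3 scales, which differ mainly by a shift shared across genes. Among the deposited values only Smarcd1 is filled.

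Genes that the symbol rule does not reach were taken from textbook lists of the same or related complexes and of other SNF2-type genes. The lists held 68 genes, of which 67 were tested. Of these, 15 rose and 14 fell under TMM scaling, with a median log2 change of 0.05. That is 43.3% called, against 35.0% of all tested genes (17.4% higher and 17.6% lower). The rises numbered 7 without WT replicate 1, 5 without WT replicate 3, 8 without cKO replicate 1 and 7 without cKO replicate 2. In the list of 14 further SWI/SNF subunits, 7 of 13 tested genes fell and 3 rose, with a median of -0.32. Arid2, the PBAF counterpart of Arid1a, was 138, 139 and 129 CPM in WT and 73.8, 54.8 and 92.4 CPM in cKO libraries (log2 change -0.90, SE 0.145, limma adjusted p = 0.000548). Dpf2, a histone reader of BAF, rose from 8.34, 19.98 and 12.9 to 41.9, 54.6 and 32.6 CPM (1.63, SE 0.258, adjusted p = 0.000846). It also passed as deposited (1.95). Bcl7c fell from 84.1, 80.9 and 68.8 to 48.1, 48.0 and 56.1 CPM. The other falls, named after their values were seen, were Ss18, Ss18l1, Bicra, Bicral and Dpf3, and the other rises Bcl7a and Bcl7b. Actl6b had 0 reads in every library, which allows up to 3 reads in each. Over both SWI/SNF lists together, 10 of 26 tested genes fell and 5 rose, against 17.6% and 17.4% of all tested genes. As deposited, 0 fell and 3 rose, against 1.39% and 6.58% of all tested genes.

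The NuRD list of 12 genes had 3 rises and 2 falls, 41.7% called against 35.0% of all tested genes. Mta2, a NuRD scaffold gene, rose from 0.989, 2.76 and 1.34 to 6.20, 6.09 and 7.25 CPM (log2 change 1.53, SE 0.212, limma adjusted p = 0.000219). Every cKO library was above the WT libraries. Gatad2b fell by 0.52 and Rbbp4, a histone chaperone gene, rose by 0.46 (limma adjusted p = 0.00297 and 0.00399). Of 25 INO80, SRCAP and TIP60 genes, 5 rose and 2 fell, 28.0% called and so below the share of all tested genes. Mbtd1, a TIP60 subunit gene, fell from 346, 348 and 335 to 148, 111 and 210 CPM (-1.18, SE 0.173, limma adjusted p = 0.000461), and Epc2 from 69.9, 64.9 and 65.8 to 43.3, 44.4 and 47.1 CPM (-0.56). Znhit1, of SRCAP, rose by 0.42. These 3 genes were separated between genotypes in all libraries.

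Among 4 further ISWI partners, Rsf1, the partner of SNF2H in the RSF complex, fell from 11.2, 11.4 and 10.1 to 5.45, 3.07 and 8.06 CPM (-0.94, limma adjusted p = 0.00662). The small histone-fold genes Chrac1 and Pole3 of CHRAC rose by 0.75 and 0.29. Thus Baz1a and the histone-fold genes of the same complex differed in direction. Of 13 other SNF2-type genes and partners, 2 rose and 2 fell, 30.8% called against 35.0% of all tested genes. Ercc6, the Cockayne syndrome B gene of transcription-coupled repair, fell from 17.1, 17.3 and 17.7 to 8.10, 6.05 and 11 CPM (-1.0, limma adjusted p = 0.000859). Hltf, a fork remodeler gene, fell by 0.54. Cdca7, the partner of HELLS, rose by 0.59 (limma adjusted p = 0.0299), with overlapping groups.

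**Figure D5:**
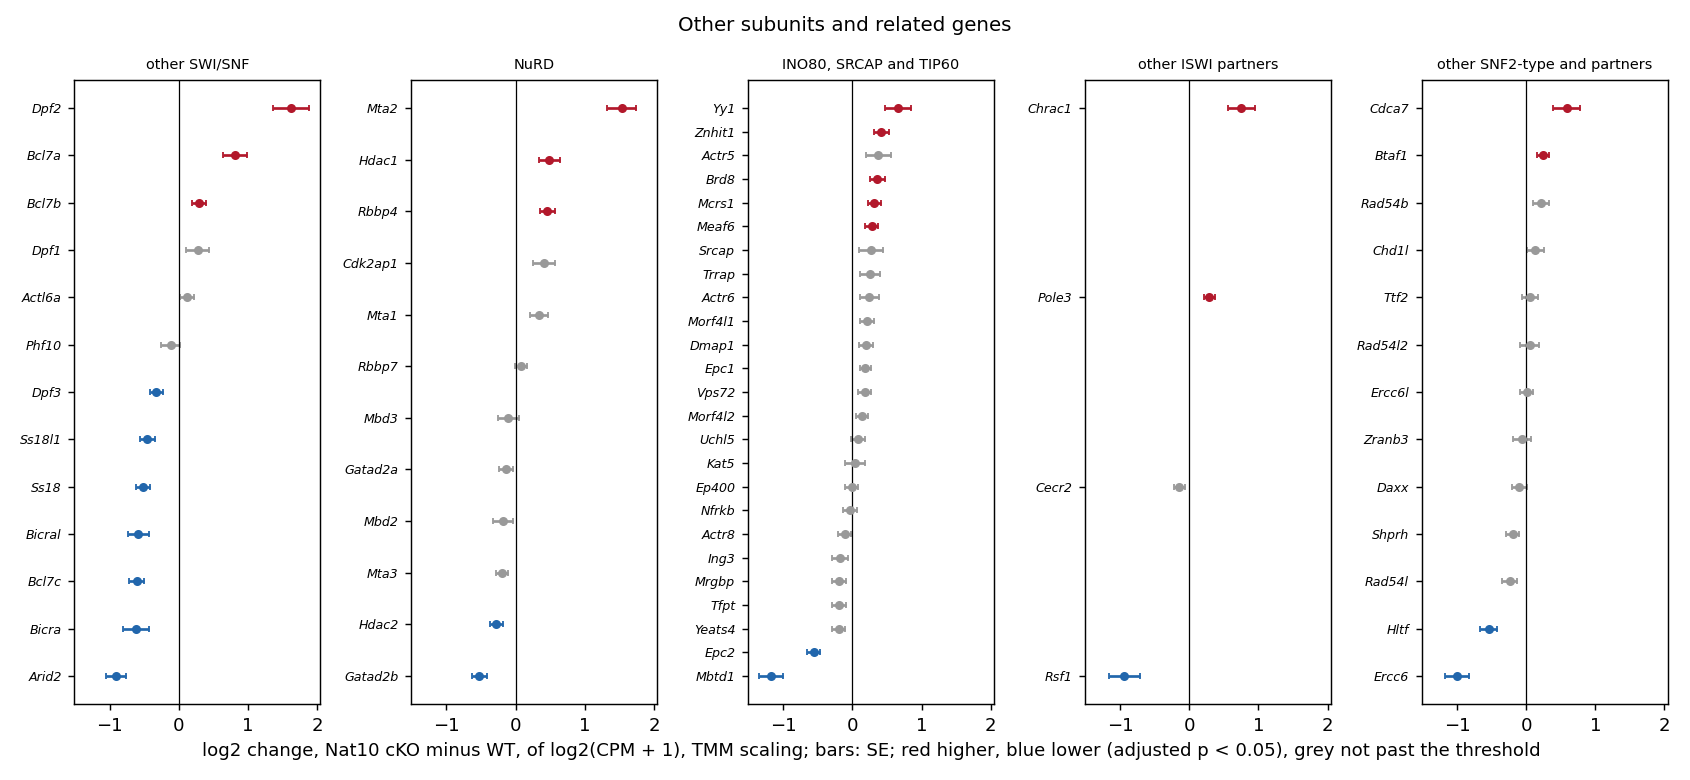
Log2 change (cKO minus WT, horizontal axis, log2(CPM + 1) scale) of 67 tested genes in 5 lists of other subunits and related genes, 1 panel per list. Points are limma estimates from 3 libraries per genotype and bars are standard errors. Red, blue and grey mark rises, falls and genes that did not pass. In the SWI/SNF panel 7 genes are blue and 3 red, from Arid2 at -0.90 to Dpf2 at 1.63.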

How the data were processed

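The deposited table has 1 column per library. WT replicate 1 was deposited as whole read counts. The authors' values for the other 5 libraries are a signal: whole reads multiplied by a library factor (0.908 to 1.38). The formula is not stated. Trim Galore 0.6.7, STAR 2.7.10a, featureCounts and mm10 were used, per the submitters' processing notes; no source used here gives settings, annotation or strand handling. Undoing the factor returned whole reads (tolerance 0.001) for 100% of the values.

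Genes were kept by filterByExpr (minimum count 10). The main test was limma (trended, robust) on log2(CPM + 1) with TMM factors, two-sided. R 4.3.3, limma 3.58.1, edgeR 4.0.16, DESeq2 1.42.0, Python 3.11.15 and scipy 1.17.1 were installed; edgeR and DESeq2 were run on the recovered reads as alternatives. The limma fit was also run on simulated counts drawn independently for each gene. Such counts lack shifts shared across genes within a library, so that run does not bear on them. Deposited values were divided by 1 constant for a second scale. Lengths, positions and overlaps came from GENCODE M21 (GRCm38, the assembly of mm10): 22 of 51 members share exon bases with another gene, 17 of them on the opposite strand.

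Members and lists were chosen with earlier results of these data known. Named genes are Nat10, every member, the 3 genes with the smallest p in each list of other subunits and the 2 most abundant of each marker list. Marker genes at or near 0 are named as well; any other gene was picked with its values in view. Replicates of a genotype differed by more than sampling noise in every pair. Same-numbered libraries did not deviate together (correlations 0.08, 0.07 and -0.12), so the numbers do not pair them.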

Additional observations from a re-analysis of the deposited data

How the results depend on the processing

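Across the 16 alternatives, no called remodeler gene changed direction. The counts of members moved with the scale. As deposited, 1 rose and 0 fell, as did 1207 and 255 of all tested genes and 4 and 0 of the other subunits (9 and 1 at an unadjusted p under 0.05 in limma). With the deposited factors on per-read shares, 1 member rose, as did 1027 of all genes and 2 other subunits. Without a low-count filter 9 other subunits rose, and the share of all genes in that setting is not given here. The cause of these shifts was not tested. Leaving out 1 library gave 5 to 12 member rises, 5 to 14 member falls, 5 to 20 rises of other subunits, and 2107 to 3431 rises and 2201 to 3334 falls of all genes; as deposited it gave 1 to 3 member rises. edgeR and DESeq2 each called 9 rises and 10 falls of members, and 18 of the 19 limma calls were shared with edgeR. With the replicate number as a block, 8 members rose and 11 fell, and the share of all genes is again not given here. By the labels, same-numbered libraries share only a number. Of the calls, Smarcc1 was lost and Arid1b gained. With a pseudocount of 0.25 CPM, the ratio differences that involve low genes grew, to -0.95 for Smarca5/Smarca1, 2.06 for Smarcd1/Smarcd2 and 1.36 for Smarcd1/Smarcd3. The granulosa marker Cyp19a1 turned from -0.32 to 0.031 as deposited. Depth limits Smarcd1, Smarcd3, Smarca1 and the pseudogene rows, which had few reads.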

Other observations

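Remodeler genes hold much annotated exon sequence: the median exon length of the 50 tested rows was 7881 bases, against 3524 bases over 17930 tested genes with a length. Their median GC content was 48.4% against 48.9%. This length joins the exons of all isoforms, and single transcripts can be far shorter. Smarca2 has 14269 exon bases, and 5862 in the transcript of its longest coding sequence. Across the 50 rows, the Spearman correlation of the log2 change with exon length was -0.17, against 0.04 over all tested genes with a length; the rows share libraries and are not independent.

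Direction differed with abundance among the remodeler rows, in bins chosen after the values were seen. Below a mean of 20 CPM, 6 of 16 rose and 1 fell, against 16.1% and 15.5% of all tested genes in that bin. Between 20 and 100 CPM, 1 of 21 rose and 6 fell, against 22.0% and 20.1%. At 100 CPM or more, 2 of 13 rose (Chd9 and Hells) and 3 fell (Arid1a, Smarca2 and Smarcd2), against 15% and 23.2%. The low-level rises were Smarcd1, Smarca1, Smarcc1, Ino80c, Arid3c and Arid5a. The difference between bins was not tested.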
